A study of Mus musculus with 2 samples.

Results

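The genes described here are 7 mouse genes for receptors of the constant (Fc) part of antibodies, of 32285 genes listed in each of 2 single-cell RNA-seq libraries. They were chosen by name, with earlier results of these data known. They are the activating IgG receptors Fcgr1, Fcgr3 and Fcgr4, the inhibitory IgG receptor Fcgr2b, the signaling chain Fcer1g, the neonatal Fc receptor Fcgrt and the Fc receptor-like gene Fcrls. The cells were CD11b+ and CD11c+ cells sorted from colonic polyps of C57BL6/J mice aged 26 weeks. Tumours had been induced in all of them with azoxymethane (AOM), a carcinogen, followed by 3 rounds of 1% DSS (dextran sodium sulfate, which injures the colonic epithelium), and cells were collected 16 weeks after AOM. The WT library pools 5 mice and the other library 4 Clec7a-/- mice, which the labels call KO. These mice lack Dectin-1, the beta-glucan receptor that Clec7a encodes, in all cells, and Clec7a was not analysed here, so the deletion was not checked. Because there is 1 pooled library per genotype, differences between mice and between library preparations cannot be told apart from the genotype, and no test was made.

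Activating Fc receptors bind IgG in immune complexes and signal through an ITAM (immunoreceptor tyrosine-based activation motif), which in mouse Fcgr1, Fcgr3 and Fcgr4 lies in the shared Fcer1g chain. Fcgr2b has an inhibitory motif of its own and dampens signals of activating receptors on the same cell. Fcgrt binds IgG in acidic endosomes together with B2m and returns it to the cell surface, and Fcrls belongs to the Fc receptor-like family and is known as a microglial and macrophage gene whose ligand is not established.

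In the mouse genome (GRCm38, GENCODE M21) 4 of the genes lie within 275.7 kb of chromosome 1, a stretch that holds 11 protein-coding genes. They are Fcgr2b at chr1:170958617-170976547 on the minus strand, Fcgr4 at chr1:171018920-171029761 on the plus strand, Fcgr3 at chr1:171051174-171064935 on the minus strand, and Fcer1g at chr1:171229572-171234365 on the minus strand. Fcrls at chr3:87250758-87263738 and Fcgr1 at chr3:96282909-96293969 are on chromosome 3, and Fcgrt at chr7:45092990-45103851 is on chromosome 7, all 3 on the minus strand. Of the 100-base stretches in the last 1000 bases of each gene's transcripts, 2.12% of those of Fcgr3 also occur in Fcgr2b and 2.13% of those of Fcgr2b occur in other genes, Fcgr3 among them. The other 5 genes had none. A few reads could therefore be split between Fcgr3 and Fcgr2b. An antisense gene listed in the files overlaps Fcgr2b (Gm38204) and another overlaps Fcgrt (Gm45669), and whether the counting used strand is not given in the sources used here.

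The start regions of 4 of the 7 genes hold the letters GAGGAAG or, on the other strand, CTTCCTC, a form of the site bound by PU.1, an ETS factor of myeloid cells. The stretches shown are those that hold the motif. Of these genes, Fcgr3 (lower in KO) and Fcrls (higher in KO) are the members past 1.5-fold between the libraries in a main class below. Fcgr1 and Fcgr4 were within it in the main classes where they had enough UMIs. A link between the motif and these ratios was not tested. The stretches come from RefSeq (GRCm38.p6), where all 7 genes were matched, run 5′ to 3′ on the strand of the gene, lie before the transcript start, and have the motif in capitals. RefSeq starts can differ from the GENCODE ends given above.
Fcgr1 (chr3:96293993-96294052): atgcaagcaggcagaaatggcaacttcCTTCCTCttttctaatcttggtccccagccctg
Fcgr3 (chr1:171059404-171059437): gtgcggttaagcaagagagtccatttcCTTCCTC
Fcgr4 (chr1:171018876-171018925): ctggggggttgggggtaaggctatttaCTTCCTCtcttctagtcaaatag
Fcrls (chr3:87263636-87263695): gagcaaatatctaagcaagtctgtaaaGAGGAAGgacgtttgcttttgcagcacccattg
The motif was chosen after these sequences had been seen. It occurs, on either strand, in 13.6% of 32851 RefSeq starts searched in the same window, from 250 bases before to 50 bases after the start. In these 4 genes it begins 56 (Fcgr1), 7 (Fcgr3), 23 (Fcgr4) and 144 (Fcrls) bases before the start. Its presence is a match of letters and was not tied to binding.

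Expression was counted in UMIs (unique molecular identifiers, each standing for 1 captured transcript). Cells were kept if they had between 200 and 4000 genes and no more than 5% mitochondrial UMIs, which left 2696 WT cells with 12283285 UMIs and 1999 KO cells with 7559096 UMIs. Median depth was 3412.5 and 2671 UMIs per cell. Of the barcode sequences, 17 occurred in both libraries, 6 of them in cells kept in both. The cells fell into 15 clusters, which were grouped by marker genes into neutrophil-like, monocyte-like, transitional monocyte-like, macrophage-like and dendritic cell (DC)-like classes, a cluster with markers of both neutrophils and monocytes, and small clusters that were mast-cell-like, T-cell-like, epithelial-like, B- or plasma-cell-like, or proliferating and unnamed. The 7 genes were left out of the features used for clustering, although Fcgr2b still ranked among the 10 genes highest by fold in the transitional monocyte-like cluster. Itgam and Itgax, which encode the sorted proteins CD11b and CD11c, were at 430.1 and 592 counts per 1000000 UMIs over all WT cells and at 262 and 527 over all KO cells. The neutrophil-like class was held mainly by the Retnlg Ngp cluster in WT (497 of 681 cells) and by the shallower Prok2 Csf3r cluster in KO (315 of 403 cells).

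A level is given below in CPM, the UMIs of a gene per 1000000 UMIs of the same cells, with an exact 95% Poisson interval. Intervals cover counting error only. The kit reads the 3′ end of transcripts, so CPM is not scaled by gene length, and levels are compared between cells rather than between genes.

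Fcer1g, the chain that the activating receptors need for signaling and for surface expression, was present at a high level in all neutrophil, monocyte and macrophage classes. In WT it was at 3667 CPM (3545 to 3793) in monocyte-like, 3602 (3514 to 3692) in neutrophil-like, 3258 (3204 to 3312) in macrophage-like and 2648 (2564 to 2735) in transitional monocyte-like cells. In KO these levels were 3290 (3144 to 3440), 3292 (3132 to 3459), 3246 (3167 to 3326) and 2713 (2606 to 2823). The monocyte-like and neutrophil-like intervals overlapped in WT, those 2 classes and the macrophage-like class overlapped in KO, and the transitional class was the lowest of the 4 in both libraries. DC-like cells stood far below at 307 CPM (283 to 334) in WT and 228 (211 to 246) in KO. Among the DC-like clusters the Xcr1 Itgae cluster was lowest, at 102 and 85.0 CPM, and the S100a4 Ccr7 cluster highest, at 756 and 721 CPM. The unnamed proliferating cells (13 WT, 21 KO) were at 3512 and 2861 CPM. The few mast-cell-like cells (16 WT, 5 KO) were at 1336 and 1898 CPM and the T-cell-like cells at 527 and 329 CPM. Mast cells carry Fcer1g as part of the IgE receptor, and some innate-like lymphocytes also express it.

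Fcgr1, the high-affinity receptor that binds IgG2a and IgG2c also as single molecules, was mainly a macrophage-like transcript. It reached 92.0 CPM (83.1 to 101.5) in WT and 104 (90.1 to 119) in KO macrophage-like cells, which held 77.1% of its 511 WT UMIs and 75.3% of its 275 KO UMIs. The unnamed proliferating cells, 13 in WT and 21 in KO, were at a similar level, 91.85 (48.91 to 157.1) and 75.58 (40.24 to 129.2) CPM. Monocyte-like cells were at 36.6 (25.3 to 51.1) and 32.4 (19.5 to 50.6) CPM, and transitional monocyte-like cells at 23.0 (15.7 to 32.4) and 26.7 (17.1 to 39.7) CPM, with overlapping intervals. Neutrophil-like cells had 3 UMIs in WT and 0 of 479597 UMIs in KO. With the limit set at 3 counts this allows up to 6.26 CPM, and the exact interval reaches 7.69 CPM.

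Fcgr3, a low-affinity receptor for IgG immune complexes, was found in all myeloid classes and was highest in WT neutrophil-like cells. In WT, with mixed and macrophage-like intervals overlapping, it was at 686 CPM (648 to 726) in neutrophil-like, 432 (400 to 465) in mixed, 426 (406 to 446) in macrophage-like, 328 (292 to 367) in monocyte-like and 241 (216 to 268) in transitional monocyte-like cells. In KO the order began with macrophage-like cells at 417 CPM (389 to 446) and neutrophil-like cells at 413 (357 to 475), whose intervals overlapped. Mixed cells at 358 (288 to 440) overlapped with both, and monocyte-like cells were at 302 (259 to 350) and transitional monocyte-like cells at 264 (231 to 299). DC-like cells had 26.6 and 23.7 CPM. The place of neutrophil-like cells above the other classes was therefore seen in the WT library and not in the KO library.

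Fcgr4, which binds IgG2a, IgG2b and IgG2c and is known from neutrophils, monocytes and macrophages, divided the macrophage-like cells. In the Mmp13 Pf4 cluster it was at 191 CPM in WT and 200.5 in KO, and in the Trem2 Lpl cluster at 61.4 and 60.2 CPM. The difference between these clusters had nearly the same size in both libraries. Over the whole macrophage-like class the level was 112 CPM (102 to 122) in WT and 123 (108 to 140) in KO. Neutrophil-like cells were at 139 (122 to 157) and 188 (151 to 231) CPM, just overlapping with macrophage-like cells in WT and not in KO. Monocyte-like (31.2 and 34.1 CPM) and transitional monocyte-like cells (43.0 and 41.2 CPM) were low in both.

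Fcgr2b, the inhibitory receptor, was highest in transitional monocyte-like cells, whose leading genes include Ccl24 and Arg1. It was at 507 CPM (470.3 to 546) in WT and 638 (587 to 693) in KO transitional cells, above every other class in each library. Macrophage-like cells were at 382 (364 to 401) and 368 (342 to 396) CPM and monocyte-like cells at 360 (323 to 401) and 268 (227 to 313) CPM. Those 2 classes overlapped in WT and not in KO. Neutrophil-like cells, at 33.0 and 31.3 CPM, had the lowest levels among the monocyte, macrophage and neutrophil classes, so Fcgr3 and Fcgr2b were both common in monocyte-like and macrophage-like cells while neutrophil-like cells had Fcgr3 and little Fcgr2b.

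Fcgrt was scarce, with 100 UMIs in WT and 52 in KO over all cells. Macrophage-like cells held 74.0% of these UMIs in WT and 26 of 52 in KO, and DC-like cells 11 of 100 in WT and 42.3% in KO. The level in macrophage-like cells was 17.3 CPM (13.6 to 21.7) and 13.03 (8.52 to 19.1). By cluster it was highest in the Mmp13 Pf4 macrophage-like cells (25.9 and 20.1 CPM), followed by the Xcr1 Itgae DC-like cells (15.5 and 13.1 CPM, from 10 and 15 UMIs). Its intervals in these 2 clusters overlapped. Neutrophil-like cells had 0 UMIs in WT and 1 in KO.

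Fcrls was a transcript of the macrophage-like cells, which held 93.4% of its 663 UMIs in WT and 92.8% of its 500 UMIs in KO. Its level there was 144.5 CPM (133 to 156) in WT and 233 (212 to 255) in KO. Transitional monocyte-like cells had 6 and 1 UMIs, monocyte-like cells 1 and 1, and DC-like cells 2 and 0. The unnamed proliferating cells, 13 in WT and 21 in KO, had 32 and 29 UMIs, a level of 226 (155 to 319) and 169 (113 to 242) CPM. The boundary between macrophage-like cells and the monocyte classes was thus sharper for Fcrls than for the IgG receptors, each of which was also counted in monocyte-like cells.

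**Figure D1:**
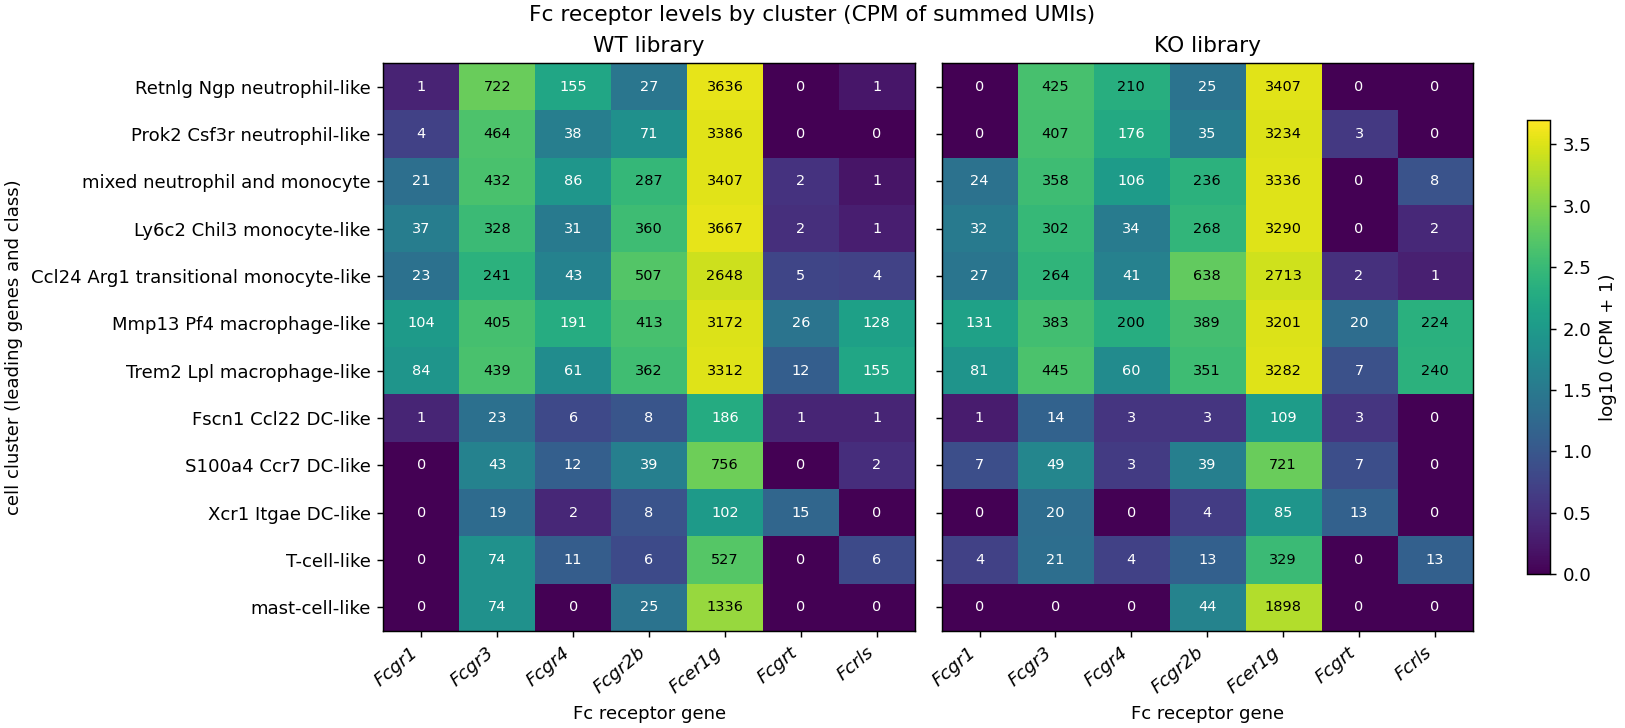
Levels of the 7 genes (columns, CPM printed in each cell and coloured as log10 of CPM plus 1) in 12 clusters (rows) of the WT library (left) and the KO library (right); the proliferating, epithelial-like and B- or plasma-cell-like clusters are left out. Fcer1g is at 2648 CPM or more in the 7 neutrophil, monocyte, mixed and macrophage rows, and Fcrls is at 127.5 CPM or more in both macrophage rows and at most 12.6 CPM in the other rows.

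To see how often receptors were found in the same cell, each cell was thinned to 1000 UMIs and shallower cells were left out. This fell unequally on the libraries, since 604 of 681 WT but 217 of 403 KO neutrophil-like cells remained. In the Prok2 Csf3r cluster 109 of 184 WT and 132 of 315 KO cells remained, and in the Retnlg Ngp cluster 495 of 497 and 85 of 88. At least 1 of the 4 IgG receptors (Fcgr1, Fcgr3, Fcgr4, Fcgr2b) had a UMI in 59.6% of WT and 54.5% of KO macrophage-like cells, in 55.5% and 45.2% of neutrophil-like cells, in 50.8% and 61.4% of transitional monocyte-like cells and in 46.5% and 43.6% of monocyte-like cells. In DC-like cells the shares were 4.80% and 3.75%, at a median depth before thinning that was above that of neutrophil-like cells. They were used as a low reference, although the S100a4 Ccr7 cluster among them was at 4.42% and 9.09%. In T-cell-like cells, the class planned for this purpose, the shares were 10.7% of 56 WT cells and 2.20% of 91 KO cells. At least 2 of the 4 were found in 19.1% and 15.9% of macrophage-like cells but in 7.45% and 6.91% of neutrophil-like cells. Fcgr3 and Fcgr2b, the activating and inhibitory pair, had a UMI together in 57 of 508 WT macrophage-like cells (11.2%) and in 17 of 277 KO cells (6.14%), against 10.0% and 7.18% that the product of their single shares gives.

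The levels of the 7 genes were next compared between the libraries within each class, as the log2 ratio of KO over WT with an exact 95% interval, where a gene had at least 100 UMIs in both libraries together. In macrophage-like cells all 7 genes passed this minimum and 1 was past 1.5-fold, beside 5.09% of all genes with that many UMIs. That gene was Fcrls, 1.61-fold higher in KO, with a log2 ratio of 0.69 (0.51 to 0.86). Both macrophage-like clusters had it, at 127.5 and 224 CPM in the Mmp13 Pf4 cluster (log2 ratio 0.81, 0.53 to 1.10) and at 155 and 240 CPM in the Trem2 Lpl cluster (0.63, 0.40 to 0.85). With the limits on detected genes at 500 and 6000 the ratio was 0.56, just under 1.5-fold. Cells with a UMI of Fcrls after thinning to 1000 UMIs made up 11.2% (8.61 to 14.3, 57 of 508) in WT and 21.7% (17 to 27, 60 of 277) in KO, and without thinning 34.9% and 41.9%, at median depths of 7825 and 6156.5 UMIs. The size of this difference depended on depth. With 2000 UMIs per cell the log2 ratio of the shares was 0.37 (-0.01 to 0.76), an interval that held 0, and without thinning 0.26 (0.01 to 0.52). In DC-like cells, at medians of 4277 and 4098 UMIs, the unthinned shares were 0.557% and 0%. The 10 macrophage markers together were also higher in KO macrophage-like cells, at 16691 and 22727 CPM (log2 ratio 0.45), with 8 of the 10 higher, 2 lower and none at 0. Their part in the Fcrls value was not tested.

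The other 6 genes were within 1.5-fold in macrophage-like cells. Fcer1g had a log2 ratio of -0.01 (-0.05 to 0.04), Fcgr3 of -0.03 (-0.15 to 0.09) and Fcgr2b of -0.05 (-0.18 to 0.07). These are the 3 narrowest intervals among the members in this class. Fcgr1 was at 0.18 (-0.08 to 0.42), Fcgr4 at 0.14 (-0.09 to 0.37) and Fcgrt at -0.39 (-1.11 to 0.26), the last from 100 UMIs in all.

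In neutrophil-like cells 3 of the 7 genes had enough UMIs and 1 was past 1.5-fold, beside 19.3% of all genes. Fcgr3 was 1.66-fold lower in KO, with 1207 UMIs in WT and 198 in KO and a log2 ratio of -0.73 (-0.96 to -0.52). The clusters differed in this. In the Retnlg Ngp cluster, where 497 WT and 88 KO cells had median depths of 2799 and 1769 UMIs, Fcgr3 was at 721.5 and 425 CPM (log2 ratio -0.75, -1.14 to -0.41). In the Prok2 Csf3r cluster, where 184 WT and 315 KO cells had medians of 1132 and 910 UMIs, it was at 463.5 and 407 CPM (-0.19, -0.57 to 0.19). Cells were also split at the median depth of the class over both libraries together. KO cells were shallower, so a larger share of WT than of KO cells fell in the deeper part. Among cells at or above this median the ratio was -0.45 (-0.95 to -0.02), and among those below it -0.57, so neither part alone was past 1.5-fold. The share of cells with a UMI of Fcgr3 was 48.2% (44.1 to 52.2) in WT (291 of 604 cells) and 65 of 217 cells (interval 23.9% to 36.5%) in KO at 1000 UMIs per cell, and 71.2% and 31.8% without thinning, beside 9 of 333 and 8 of 533 thinned DC-like cells. With 2000 UMIs per cell 36 KO cells remained, and the shares were 71.0% and 63.9%. The 10 neutrophil markers together were lower in KO neutrophil-like cells as well, at 44469 and 31591 CPM (log2 ratio -0.49), with 8 lower, 2 higher and none at 0. Other lists went the other way. The 8 monocyte markers were at 4803 and 6528 CPM (0.44, 4 higher, 4 lower, with F13a1 at 0). The 10 macrophage markers were at 346.3 and 431.6 CPM (0.32, 6 higher, 4 lower) and the 10 dendritic cell markers at 42.08 and 158.5 CPM (1.91, with Cd209a at 0). The part of these lists and of depth in the Fcgr3 value was not tested.

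Fcgr4, in the same cells, was higher in KO, with 139 and 188 CPM and a log2 ratio of 0.44 (0.07 to 0.79), within 1.5-fold. In the Retnlg Ngp cluster the ratio was 0.46 (-0.13 to 0.96), and in the Prok2 Csf3r cluster 9 WT and 56 KO UMIs gave 37.6 and 176.5 CPM and a ratio of 2.17 (1.21 to 3.43), a total below the minimum of 100 UMIs. The ratio differed with depth. It was -0.20 (-1.35 to 0.64) among neutrophil-like cells at or above the same median depth over both libraries, an interval that held 0. Among those below the median it was 1.75 (0.89 to 2.86). The share of cells with a UMI was 11.4% and 18.4% at 1000 UMIs per cell but 26.7% and 19.9% without thinning. Fcer1g was at -0.13 (-0.21 to -0.05) in neutrophil-like cells.

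**Figure D2:**
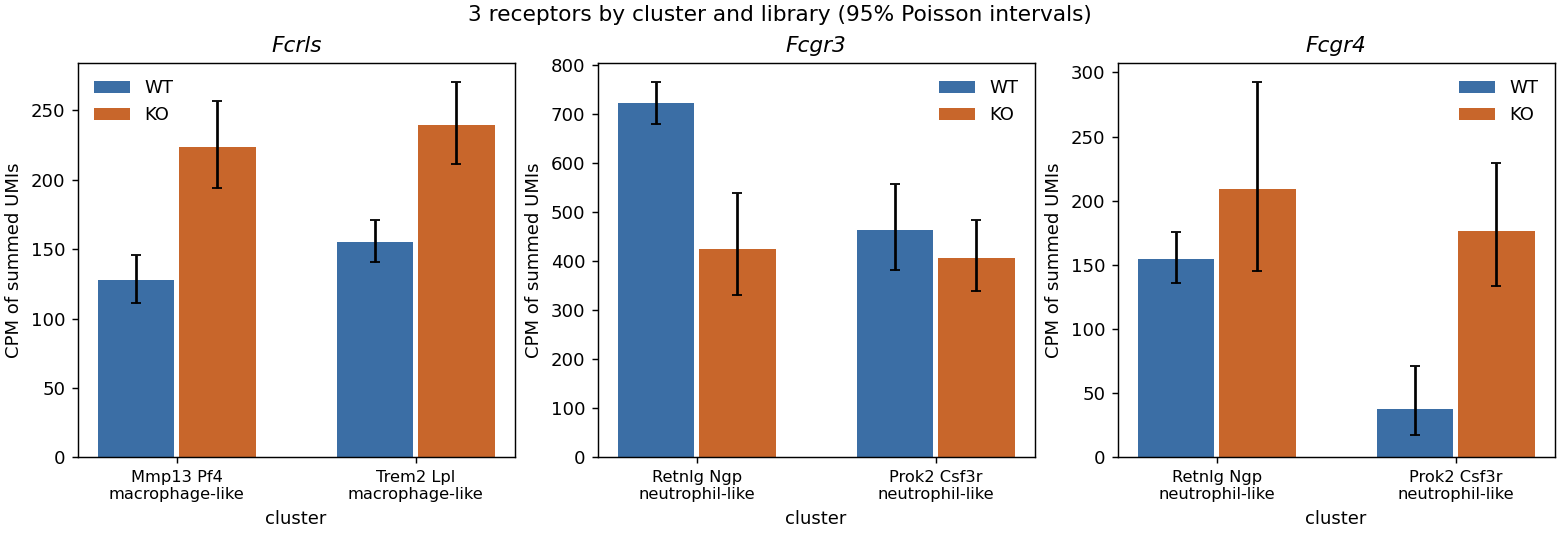
Levels (vertical axis, CPM of summed UMIs, bars from 0, with 95% Poisson intervals) of Fcrls in the 2 macrophage-like clusters and of Fcgr3 and Fcgr4 in the 2 neutrophil-like clusters, WT in blue and KO in orange. The KO bar of Fcrls is higher in both macrophage-like clusters, whereas the libraries differ for Fcgr3 mainly in the Retnlg Ngp cluster and for Fcgr4 mainly in the Prok2 Csf3r cluster.

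In monocyte-like cells 3 of the 7 genes could be compared and 0 were past 1.5-fold, beside 7.18% of all genes. In transitional monocyte-like cells 3 could be compared and 0 were past it, beside 6.84%. Fcgr2b went in opposite directions in these classes. It was lower in KO monocyte-like cells, with 335 and 157 UMIs and a log2 ratio of -0.43 (-0.71 to -0.15), and higher in KO transitional cells, with 707 and 574 UMIs and a ratio of 0.33 (0.17 to 0.49). After thinning to 1000 UMIs a UMI of Fcgr2b was found in 26.6% and 19.7% of monocyte-like cells and in 35.4% (30.2 to 40.9) and 50.7% (43.9 to 57.4) of transitional cells, beside 5 of 333 and 10 of 533 DC-like cells. In the transitional class all 8 monocyte markers were lower in KO (7342 and 5810 CPM together, log2 ratio -0.34) and 7 of 10 macrophage markers higher (2388 and 3086 CPM, 0.37), with none of either list at 0. In the monocyte-like class the monocyte markers together were at 15191 and 14759 CPM (-0.04), the transitional monocyte markers at 2694 and 2277 CPM (-0.24, 5 of 6 lower) and the neutrophil markers at 1923 and 1219 CPM (-0.66, 8 of 10 lower), with none of these lists' markers at 0. The part of these markers in the Fcgr2b values was not tested. Fcgr3 was at -0.12 (-0.40 to 0.15) in monocyte-like and 0.13 (-0.12 to 0.37) in transitional cells, and Fcer1g at -0.16 (-0.24 to -0.08) and 0.03 (-0.04 to 0.11).

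In DC-like cells 2 of the 7 genes could be compared and 0 were past 1.5-fold, beside 6.52% of all genes. Fcer1g was lower in KO DC-like cells, with a log2 ratio of -0.43 (-0.60 to -0.27), and by cluster the ratio was -0.77 (-1.14 to -0.40) in the Fscn1 Ccl22 cells, -0.07 (-0.27 to 0.14) in the S100a4 Ccr7 cells and -0.27 (-0.73 to 0.21) in the Xcr1 Itgae cells. Among deeper DC-like cells, at or above the median depth of the class, the ratio was -0.72, past 1.5-fold, and among the shallower cells -0.06. All 10 neutrophil markers were lower in KO DC-like cells too, at 2002 and 1240 CPM together (log2 ratio -0.69, none at 0). The 10 macrophage markers went the other way, at 177.8 and 237.4 CPM together (0.42, 9 higher, 1 lower, none at 0). The mix of clusters differed as well, with 134 WT and 166 KO cells in the S100a4 Ccr7 cluster. The Fscn1 Ccl22 cluster held 138 and 230 cells and the Xcr1 Itgae cluster 87 and 169. The part of either list or of the mix of clusters in the Fcer1g value was not tested. Fcgr3 was at -0.17 (-0.72 to 0.40). In the cluster of mixed neutrophil and monocyte markers (344 WT and 84 KO cells) 4 could be compared and 0 were past 1.5-fold, beside 14.3% of all genes, with ratios from -0.27 (Fcgr2b) to 0.33 (Fcgr4) and intervals that all held 0. In the small clusters Fcer1g alone had enough UMIs. It was lower in KO T-cell-like cells, past 1.5-fold, with 92 and 78 UMIs and a log2 ratio of -0.68 (-1.14 to -0.23). The share of all genes past 1.5-fold was not counted for the small clusters. In the T-cell-like cells the 10 neutrophil markers together were at 5586 and 1892 CPM (-1.56, 9 lower, 1 higher, none at 0). The 4 NK (natural killer) cell markers were at 876.7 and 227.5 CPM (-1.95, 3 lower, 1 higher, with Prf1 at 0). The 10 macrophage markers were at 383.9 and 509.9 CPM (0.41, 7 higher, 3 lower, with Mrc1 at 0). The 5 T cell markers were at 3300 and 3687 CPM (0.16, 4 higher, 1 lower). The part of the neutrophil, NK cell and macrophage markers in the Fcer1g value was not tested. In the proliferating cells Fcer1g was at -0.30 (-0.48 to -0.11) and in the mast-cell-like cells at 0.52 (-0.04 to 1.03), both within 1.5-fold.

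**Figure D3:**
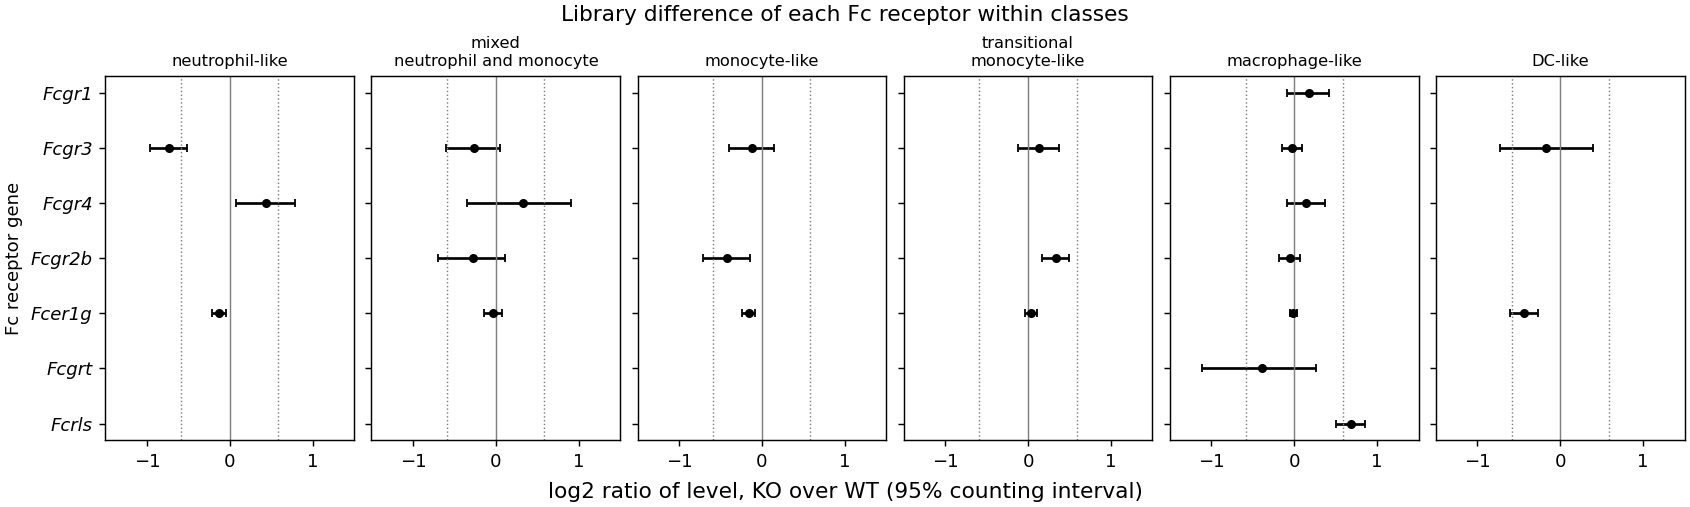
Log2 ratio of the level in KO over WT (horizontal axis) for each of the 7 genes (rows) in 6 classes (panels); points are ratios, bars exact 95% counting intervals, dotted lines 1.5-fold, and genes under 100 UMIs are not drawn. Fcrls in macrophage-like cells lies beyond the right dotted line and Fcgr3 in neutrophil-like cells beyond the left, while Fcgr2b lies left of 0 in monocyte-like and right of 0 in transitional monocyte-like cells.

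Over all cells of a library together, 6 of the 7 genes were lower in KO and 1 of the 7 was past 1.5-fold, beside 15.9% of all genes. With TMM scaling, which moved the log2 ratios over all cells by -0.17, 3 of the 7 were past it, all lower. The share of all genes past 1.5-fold was not counted under this scaling, and the 15.9% is for unscaled ratios. Fcgr3 was at 365 and 219 CPM (log2 ratio -0.74), Fcer1g at 2780 and 1922 CPM (-0.53), Fcgr4 at 79.6 and 57.5 CPM (-0.47) and Fcgr2b at 266 and 214 CPM (-0.31). Fcgrt and Fcgr1 were at -0.24 and -0.19, with intervals that held 0, and Fcrls was at 0.29. The median of all genes was 0.13, so the members' median of -0.31 lay on the other side of it.

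The makeup of the libraries moved with these values. DC-like cells, which were low in every member except Fcgrt, held 15% of UMIs in WT and 37.3% in KO, while the neutrophil-like share was 14.3% and 6.34%, the macrophage-like share 34.9% and 26.4% and the mixed share 13.1% and 3.36%. Of cells, DC-like cells were 13.3% and 28.3%, neutrophil-like cells 25.3% and 20.2%, macrophage-like cells 19.8% and 14.8% and mixed cells 12.8% and 4.2%. The neutrophil-like share of UMIs differed more between the libraries than its share of cells, beside median depths of 2507 and 1051 UMIs. When the KO level of each class was weighted by the WT shares, the ratio was -0.05 for Fcer1g, -0.03 for Fcgr2b, -0.23 for Fcgr3, 0.14 for Fcgr1, 0.21 for Fcgr4, -0.36 for Fcgrt and 0.65 for Fcrls. With the shares held fixed, Fcgr3 was no longer past 1.5-fold, and Fcrls, which was within it as measured, was past it. This value of Fcrls was between 0.54 and 0.67 under 11 alternatives, and within 1.5-fold under 4 of them, with 500 to 6000 detected genes (0.54), reciprocal PCA (0.55), 10 components (0.56) and classes set cell by cell from markers (0.56).

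**Figure D4:**
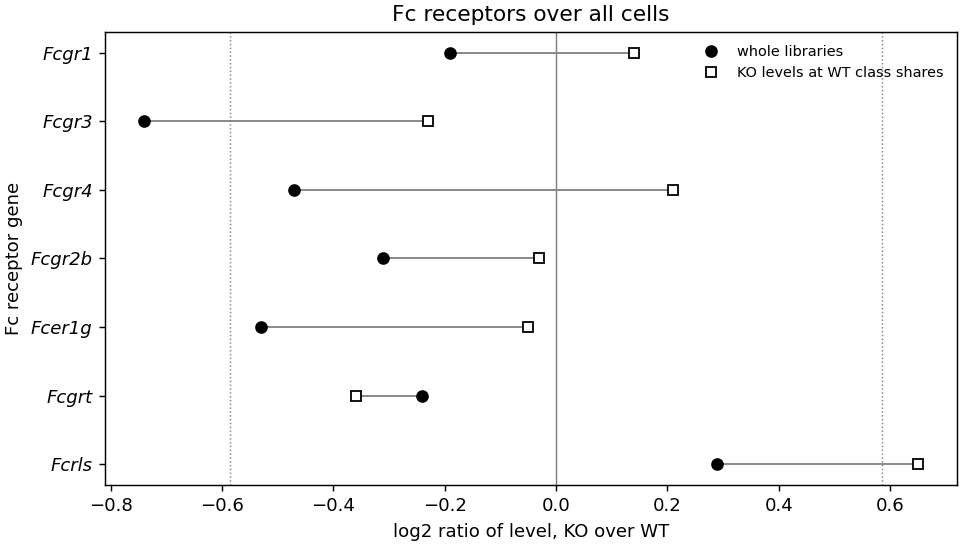
Log2 ratio of KO over WT (horizontal axis) of the 7 genes (rows) over all cells, as measured (filled circles) and with KO class levels weighted by WT class shares of UMIs (open squares); dotted lines mark 1.5-fold. Fcer1g moves from -0.53 to -0.05 and Fcgr3 from -0.74 to -0.23, and Fcrls moves away from 0, from 0.29 to 0.65.

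The inhibitory receptor was also set against the activating ones, as Fcgr2b UMIs per UMI of Fcgr1, Fcgr3 and Fcgr4 together. This ratio of counts was 1.65 (1.46 to 1.87) in WT and 1.93 (1.67 to 2.22) in KO transitional monocyte-like cells. It was 0.910 (0.783 to 1.06) and 0.727 (0.588 to 0.897) in monocyte-like cells, 0.607 (0.570 to 0.646) and 0.571 (0.521 to 0.626) in macrophage-like cells and 0.0399 (0.0301 to 0.0519) and 0.0521 (0.0288 to 0.0874) in neutrophil-like cells. The classes kept the same order in both libraries, and in each library no neighbours among these 4 classes overlapped except monocyte-like and macrophage-like cells in KO. Between the libraries the log2 ratio of the balance was 0.22 (-0.04 to 0.49) in transitional, -0.32 (-0.69 to 0.04) in monocyte-like and -0.09 (-0.25 to 0.07) in macrophage-like cells, so each interval held 0. In the Prok2 Csf3r neutrophil-like cluster, 17 WT and 11 KO UMIs of Fcgr2b gave balances of 0.140 (0.0792 to 0.234) and 0.0595 (0.0292 to 0.109). KO over WT there was -1.24 (-2.38 to -0.10) in log2 units, whereas over the whole neutrophil-like class it was 0.38 (-0.45 to 1.22). Over all cells it was 0.32 (0.21 to 0.43), with the makeup of the libraries included.

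**Figure D5:**
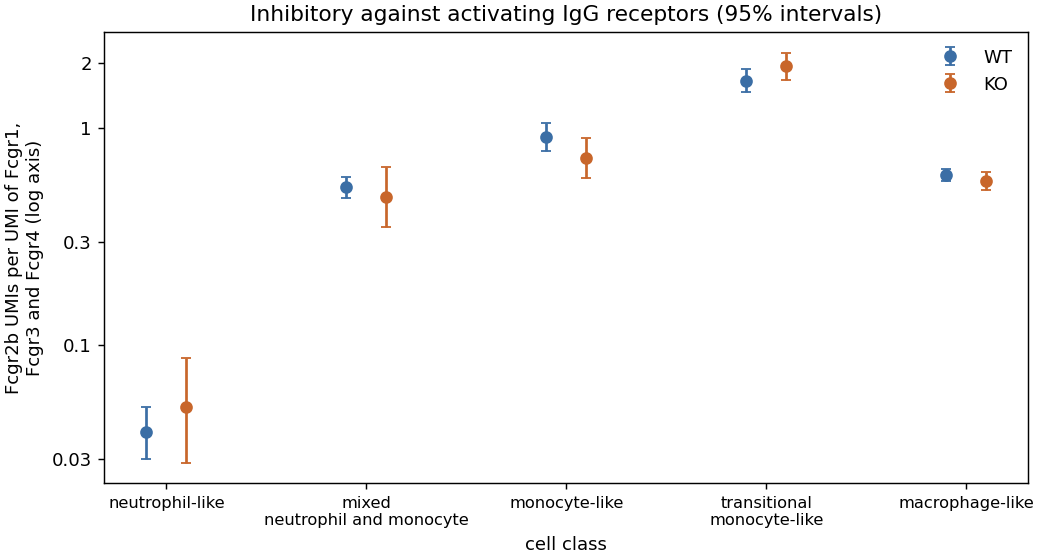
Fcgr2b UMIs per UMI of Fcgr1, Fcgr3 and Fcgr4 together (vertical log axis) in 5 classes (horizontal axis), WT in blue and KO in orange, with 95% counting intervals. Transitional monocyte-like cells are highest at 1.65 and 1.93 and neutrophil-like cells lowest at 0.0399 and 0.0521, and the libraries lie close together within each class.

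The wider pathway was followed in 48 genes of 5 lists, which are activating signaling (14 genes), inhibitory signaling (7), receptors that pair with Fcer1g (7), other Fc receptors and Fc binding proteins (13) and antibody constant genes (7). The lists too were chosen with earlier results of these data known, so their counts beside the share of all genes are a description. In macrophage-like cells 25 of them had enough UMIs and 0 were past 1.5-fold, beside 5.09% of all genes (median log2 ratio -0.12, beside -0.01 for all genes). Syk, the kinase that binds the phosphorylated ITAM, was at -0.01 (-0.18 to 0.16) there. In neutrophil-like cells 20 could be compared and 0 were past it, beside 19.3% of all genes (median -0.12). In monocyte-like cells 1 of 16 was, beside 7.18% of all genes. This was the ITAM adaptor Lat2, higher in KO with a log2 ratio of 0.66 (0.26 to 1.07). In transitional monocyte-like cells 3 of 21 were past 1.5-fold, beside 6.84% of all genes. Vav1, of the activating signaling list, was lower at -1.03 (-1.60 to -0.52), the adaptor Lcp2 was lower at -0.88 (-1.5 to -0.32), and Nfam1, a receptor with its own ITAM, was higher at 0.65 (0.15 to 1.16).

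In DC-like cells 2 of 19 list genes were past 1.5-fold, beside 6.52% of all genes, both of them C-type lectin receptors that pair with Fcer1g. Clec4d was at 202 and 96.0 CPM (log2 ratio -1.07, -1.31 to -0.84) and Clec4e at 131 and 67.0 CPM (-0.96, -1.25 to -0.68). Fcer1g was lower in KO there too. Clec4e was also lower in KO in the other main classes, within 1.5-fold. It was at -0.53 (-0.68 to -0.38) in macrophage-like and -0.52 (-0.65 to -0.38) in transitional monocyte-like cells. In neutrophil-like and monocyte-like cells it was at -0.31 (-0.42 to -0.21) and -0.16 (-0.27 to -0.05). Clec4d was between -0.15 and -0.08 in those classes. Clec4d and Clec4e were highest in neutrophil-like cells, at 5589 and 2336 CPM in WT. The neutrophil markers, as given above, were also lower in KO DC-like cells (-0.69), and the macrophage markers higher (0.42). The part of these markers was not tested. Where Clec4d and Clec4e lie in the genome relative to Clec7a was not looked at. The part of sequence linked to the deleted gene in their values was therefore not tested either. In the mixed cluster 3 of 18 list genes were past 1.5-fold, beside 14.3% of all genes, with Lat2 at 1.12 (0.46 to 1.72) and Plcg2, a phospholipase of ITAM signaling, at 0.93 (0.32 to 1.48) higher in KO and Clec4e at -0.63 (-0.81 to -0.47) lower. Over all cells 14 of 31 were past 1.5-fold, 4 higher and 10 lower, beside 15.9% of all genes (10.2% higher and 5.70% lower), again with the makeup of the libraries included. Of the antibody genes Ighg2b had 58 and 714 UMIs and Ighg3 had 731 and 0 UMIs, in libraries with 10 and 19 B- or plasma-cell-like cells. Fcer1a, the IgE-binding chain, had 129 and 21 UMIs, in libraries with 16 and 5 mast-cell-like cells.

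The genes most like each member were found by Pearson's r of log2(CPM + 10) over 23 points, each a cluster in 1 library with at least 20 cells, among 4656 genes. The points share libraries and class structure, so r is a description. For Fcgr1 they were C3ar1 (0.984), Ms4a7 (0.963) and Apoe (0.960), for Fcgr3 Sat1 (0.967), Igsf6 (0.965) and Fcer1g (0.963), and for Fcgr4 Pilrb2 (0.938), Impact (0.933) and Homer1 (0.913). For Fcgr2b they were Mmp14 (0.970), Fam20c (0.966) and Csf1r (0.959), for Fcer1g Tmem189 (0.978), Npc1 (0.970) and Itgam (0.968), for Fcgrt Ocstamp (0.868), Dnase1l3 (0.853) and H2-DMb1 (0.846), and for Fcrls Bhlhe41 (0.969), Rnase4 (0.968) and Arhgap19 (0.960). Among the members themselves r was highest between Fcgr3 and Fcer1g (0.963), followed by Fcgr3 with Fcgr4 (0.895) and Fcgr1 with Fcgr2b (0.865), and it was -0.0984 between Fcgrt and Fcer1g.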

How the data were processed

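The authors deposited, for the WT and the KO library, a matrix of raw UMI counts (genes by cell barcodes) that had not been normalized. The submitters' processing notes name Cell Ranger 2.1.1 and mm10 without giving their role, the protocol names the SeekOne MM kit (3′ ends), and the description in the labels names another platform. The WT library held 15869215 UMIs in 3467 barcodes and the KO library 11808230 in 3080.

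The study's limits on cells were applied (200 to 4000 genes, 5% mitochondrial UMIs). Counts were scaled by LogNormalize to 10000 and clustered in Seurat 5.3.0 under R 4.3.3, with 2000 variable features less the members and compared genes (1984 used), 20 components and a resolution of 0.8. Scrublet in scanpy 1.11.5 marked none of the cells kept and 1 barcode in all, so no doublets were removed and doublets may remain. Median depth of the mixed cluster was 4207 UMIs in WT and 2770.5 in KO. It was 2799 and 1769 in the Retnlg Ngp cluster and 2725.5 and 2225 in the monocyte-like cluster. Whether the mixed cluster holds doublets was not tested. Clusters were named from marker lists. UMIs were summed per class and library and compared with exact Poisson, binomial and conditional 95% intervals, a pseudocount of 0.5 UMI in the ratio, and, in place of a test, a mark at 1.5-fold with at least 100 UMIs. For a count of 0 the limit printed is that of 3 counts. The draw of UMIs in thinning was set by random seed 1.

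Named were the 7 genes, in each main class the 2 list genes furthest past 1.5-fold in each direction, and the 3 genes most like each member. List genes of the mixed cluster, which is not a main class, were named by the same rule. Syk, Ighg2b, Ighg3 and Fcer1a were named in addition, after their values were seen. The members and lists were chosen with earlier results of these data known. On simulated data, 97.5% of 200 changed genes of 5795 in the macrophage-like class lay within 0.5 of the true log2 ratio. In the neutrophil-like class 96% of 200 changed genes of 2181 did. Both simulated libraries were drawn with counting error only from the same pooled profile. Differences between mice, library preparations or the mix of clusters were not part of the simulation. Tables used Python 3.11.15, numpy 2.4.6, scipy 1.17.1 and pandas 2.3.3, plots matplotlib 3.10.9, and TMM scaling edgeR 4.0.16.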

Additional observations from a re-analysis of the deposited data

Results flagged for a closer look

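Fcgr2b was marked because its levels in KO over WT went in opposite directions in 2 classes, with intervals that did not hold 0 in either. The log2 ratio was 0.33 in transitional monocyte-like cells and -0.43 in monocyte-like cells. The difference between these ratios was not tested, since there is 1 library per genotype. The direction was the same under all 18 alternatives in each class, from 0.12 to 0.36 in transitional cells and from -0.75 to -0.29 in monocyte-like cells. The interval reached 0 in transitional cells with classes set cell by cell from markers (0.12, -0.03 to 0.27) and with a limit of 10% mitochondrial UMIs (0.14, 0.00 to 0.27), and in monocyte-like cells among those at or above the median depth of the class (-0.29, -0.66 to 0.05).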

How the results depend on the processing

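Of 20 alternatives, 16 were planned and 4 were added after the data were seen (without the 5% of cells that scored highest in Scrublet, without barcodes found in both libraries, and with only cells at or above, or below, the median depth of their class). The median depth was taken over both libraries together. Fcrls in macrophage-like cells was higher in KO under all 18 that gave a value (0.56 to 0.80), and Fcgr3 in neutrophil-like cells lower (-0.86 to -0.45). TMM scaling moved every log2 ratio by -0.17 over all cells and by -0.13 in neutrophil-like cells.

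Counts of members past 1.5-fold changed as follows. The share of all genes past it was not counted under the alternatives, so these counts and those of list genes have no such share beside them. Over the whole libraries 2 were lower with a limit of 10% mitochondrial UMIs and 3 with TMM scaling, in place of 1. In macrophage-like cells 0 were higher with 500 to 6000 detected genes, and 1 was lower with the mean over cells. In neutrophil-like cells 1 was higher with the mean over cells, and 0 were lower in either depth group. In DC-like cells 1 was lower with reciprocal PCA, a minimum of 20 UMIs or the deeper cells. In the mixed cluster 1 was higher in the deeper cells, and in monocyte-like cells 1 was lower in the shallower cells. With no minimum beyond 1 UMI, 1 was higher and 2 were lower in neutrophil-like cells, 1 was higher and 1 lower in monocyte-like cells, 1 was higher and 3 were lower in DC-like cells, 2 were lower in transitional cells and 1 was higher in the mixed cluster. List genes past 1.5-fold over the 5 main classes, without the mixed cluster, were 6, and 11 with 30 components, 10 with reciprocal PCA, with classes set cell by cell and in each depth group, 18 with a minimum of 20 UMIs and 56 with no minimum.

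Fcgr4 in neutrophil-like cells reversed to -0.20 in the deeper cells, with an interval that held 0 (-1.35 to 0.64). The balance of Fcgr2b in macrophage-like cells was -0.38 in the shallower cells. The log2 ratio of the shares of cells with a UMI at 1000, 2000 UMIs and without thinning was 0.95, 0.37 and 0.26 for Fcrls, -0.69, -0.15 and -1.16 for Fcgr3, and 0.69, 0.15 and -0.43, a reversal, for Fcgr4. The causes were not tested. Scrublet calls changed no value, since none were made. No paired analysis was possible because each genotype has 1 library. Members under 100 UMIs in a class, such as Fcgrt outside macrophage-like cells, could not be compared at this depth, and the number of mice behind a value cannot be seen in a pool.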
